A study of Homo sapiens with 45 samples.

Results

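The antioxidant response and glutathione genes described here are 10 human genes, taken by symbol as known NRF2 targets, NRF2 regulators and glutathione enzymes. All 10 were found among the 28278 gene names of the count table of 8 libraries, and all 10 were among the 13933 that passed the filter on low counts. They are 2 regulators (NFE2L2 and KEAP1), 3 genes of glutathione synthesis (GCLC, GCLM and GSS) and 5 genes of detoxification and redox repair (NQO1, HMOX1, TXNRD1, SRXN1 and GPX4). NFE2L2 encodes the transcription factor NRF2, which KEAP1 holds for degradation by the proteasome until electrophiles or oxidants modify KEAP1. Freed NRF2 pairs with a small MAF protein and binds antioxidant response elements near genes that make glutathione, regenerate thioredoxin and clear quinones and haem. Glutathione is made by a ligase of a catalytic subunit (GCLC) and a modifier subunit (GCLM), followed by glutathione synthetase (GSS).

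The cells were HCT116, an established human colon cancer line, reverse transfected with RNAiMAX and a small interfering RNA at 25 nM and collected 72 hours later. The knockdown group (siHNRNPK, 4 libraries) received siRNA against HNRNPK, which encodes an RNA-binding protein. The control group (siNTC5, 4 libraries) received a nontargeting siRNA, and 2 further nontargeting libraries named Scramble carry the same treatment label. Libraries 1 and 2 of siNTC5 and of siHNRNPK and the Scramble libraries were made with the TruSeq stranded mRNA kit, and libraries 3 and 4 of the first 2 groups with the Illumina Stranded mRNA Ligation kit. RNA of the Scramble libraries was purified with the RNeasy mini kit and that of the others on a Maxwell instrument, and the Scramble counts come in separate tables. The same study mapped lamin B1, H3K9me2, H3K9me3 and H3K27me3 by ChIP, and 7 lists of domains were used.

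Libraries held 14810376 to 23633851 counts in siNTC5, 12107280 to 15255556 in siHNRNPK, and 59209169 and 55007171 in Scramble. HNRNPK itself lay between 814 and 967 CPM (read counts scaled to library size) in siNTC5, between 157 and 250 in siHNRNPK, and at 815 and 851 in Scramble, so every library matched its label. The labels do not say whether libraries came from separate cultures, so p-values measure the spread between these libraries, which may be technical. Of 10 markers of colon epithelium, EPCAM, KRT8, KRT18, KRT19, CDH1 and CDX2 were tested, while CDX1, VIL1, LGALS4 and CEACAM5 were at or below 0.446 CPM in all 8 libraries. Their summed level was 2696 to 3113 CPM in siNTC5 and 4403 to 5442 CPM in siHNRNPK, with 4 of the 6 tested higher and KRT19 lower after knockdown. Of 6 blood markers CD3E was at 0 throughout, and the summed level was 17.9 to 24.6 CPM in siNTC5 and 22.0 to 27.4 CPM in siHNRNPK, nearly all from CD68. The summed level of 8 fibroblast and endothelial markers was 45.6 to 73.9 CPM in siNTC5 and 77.3 to 125 CPM in siHNRNPK, nearly all from COL1A1. The part of these shifts in the results was not tested.

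NRF2 recognises a short core in DNA, TGACNNNGC, whose reverse complement is GCNNNGTCA, and this core was searched on both strands of promoter windows from RefSeq on GRCh38.p14. A window runs from 250 bases before to 50 bases after an annotated start, and positions are counted from the start, with -1 for the base before it. RefSeq windows were found for 8 of the 10 genes, 13 windows in all, and HMOX1 and GSS had none in the table. The core lay in 4 of the 13 windows, in KEAP1, GCLM and TXNRD1, against 4687 of all 35116 windows (13.3%). GCLM and TXNRD1 are shown because they carry the core ahead of their annotated start and because their RNA went opposite ways after knockdown, as given further on. The sequences are the 250 bases before the start on the gene's strand, 5′ to 3′, with matches to the core in capitals: chr1:93909431-93909680 on the minus strand for GCLM and chr12:104215529-104215778 on the plus strand for TXNRD1.
GCLM: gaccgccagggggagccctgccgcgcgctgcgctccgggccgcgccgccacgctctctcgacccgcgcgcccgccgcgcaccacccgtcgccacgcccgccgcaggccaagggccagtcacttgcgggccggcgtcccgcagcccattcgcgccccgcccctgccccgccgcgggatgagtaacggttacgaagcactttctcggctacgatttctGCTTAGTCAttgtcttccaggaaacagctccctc
TXNRD1: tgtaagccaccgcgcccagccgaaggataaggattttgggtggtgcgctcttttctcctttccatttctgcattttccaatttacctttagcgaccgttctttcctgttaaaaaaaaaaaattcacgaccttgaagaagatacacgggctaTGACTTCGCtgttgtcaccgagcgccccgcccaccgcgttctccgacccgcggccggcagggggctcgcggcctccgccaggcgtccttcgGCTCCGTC
In GCLM the match was GCTTAGTCA at -34 to -26. In TXNRD1 the matches were TGACTTCGC at -99 to -91 and GCTCCGTCA at -8 to 1, of which the last letter lies beyond the printed stretch. A second TXNRD1 start, inside the gene, had GCTTTGTCA at -102 to -94. A KEAP1 start that lies inside the gene had TGACACGGC at -54 to -46 and GCTTAGTCA at -31 to -23, the same 9 letters as in GCLM. A match describes the letters of the window and is no evidence of binding, and no NRF2 ChIP was analysed here. DNA outside the windows was not searched, so a window without a match does not show that its gene lacks the element.

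After HNRNPK knockdown the 10 genes divided evenly. NFE2L2, KEAP1, GCLC, TXNRD1 and GPX4 were higher and GCLM, GSS, NQO1, HMOX1 and SRXN1 were lower than in siNTC5. By edgeR's quasi-likelihood test with library kit as a term and Benjamini-Hochberg adjustment over 13933 genes, 10 of 10 had an adjusted p under 0.05. The same held for 71.5% of all tested genes, with 35.5% higher and 36.1% lower, so the count is to be read against a table in which most genes passed. GPX4 passed only narrowly (adjusted p = 0.0471, edgeR). With Scramble among the controls GPX4 changed sign, and GPX4, NFE2L2 and GCLM lost their calls. The members' log2 fold changes ran from -0.58 to 0.64, with a median of -0.035 and a median size of 0.369, against -0.004 and 0.408 over all tested genes. In bulk RNA, fewer cells of a kind and less RNA per cell cannot be told apart.

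**Figure D1:**
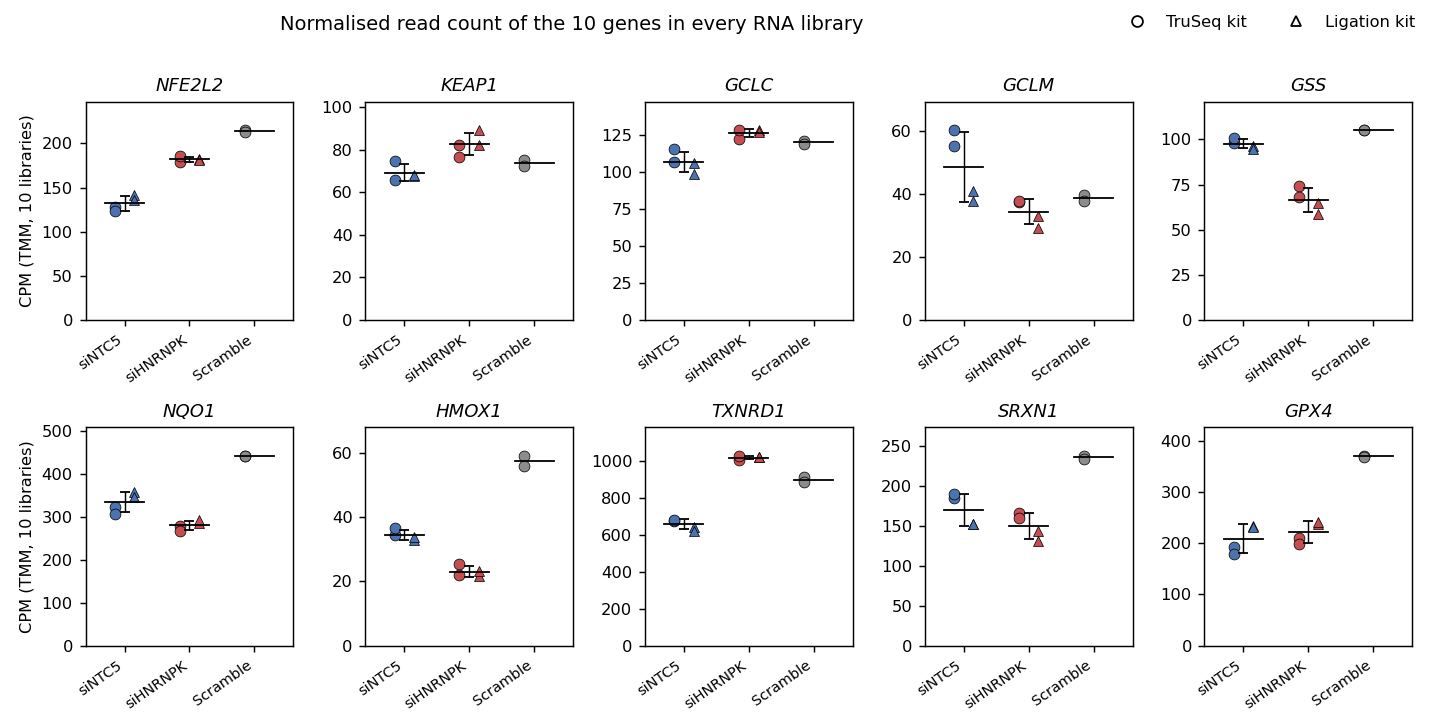
Normalised read count (CPM, TMM over 10 libraries, linear axis from 0) of each gene in 4 siNTC5, 4 siHNRNPK and 2 Scramble libraries; circles are TruSeq and triangles Ligation libraries, lines are means, and bars are SD for the groups of 4. TXNRD1 and GSS separate all siHNRNPK libraries from all 6 controls, while NFE2L2 in Scramble lies above siHNRNPK.

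The regulators both rose. NFE2L2 was at 128, 123, 140 and 135 CPM in siNTC5 libraries 1 to 4 and at 180, 186, 183 and 182 CPM in siHNRNPK libraries 1 to 4. The siHNRNPK libraries lay close together and all above siNTC5. The means were 132 ± 7.64 CPM and 183 ± 2.6 CPM (SD, n = 4 each), and the rise was 0.47 on the log2 scale (SE 0.04, adjusted p = 1.87e-08, edgeR). The Scramble libraries, at 215 and 212 CPM, were higher still than every siHNRNPK library, so siHNRNPK was between its 2 kinds of control. With the Scramble libraries added to the controls the log2 fold change was 0.23 and did not pass (adjusted p = 0.317, edgeR).

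KEAP1, the adaptor that presents NRF2 to a CUL3 ubiquitin ligase, was at 75.2, 65.9, 67.4 and 67.6 CPM in siNTC5 and at 82.3, 76.6, 82.9 and 90.0 CPM in siHNRNPK. The groups did not overlap, and the Scramble libraries, at 75.2 and 72.6 CPM, also lay below every siHNRNPK library. The rise was 0.26 on the log2 scale (SE 0.06, adjusted p = 0.000595, edgeR). The highest siNTC5 and the lowest siHNRNPK library were near each other, and within the TruSeq libraries alone the difference was 0.18 and did not pass (adjusted p = 0.0742, edgeR).

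Within glutathione synthesis the catalytic subunit rose while the modifier subunit and the synthetase fell. GCLC was at 116, 107, 105 and 97.9 CPM in siNTC5, at 123, 128, 129 and 128 CPM in siHNRNPK and at 121 and 119 CPM in Scramble. Every siHNRNPK library was above every control, though the lowest was only just above the higher Scramble library. On the log2 scale it rose by 0.25 (SE 0.05, adjusted p = 0.000185, edgeR).

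GCLM was at 55.5, 60.2, 37.4 and 40.6 CPM in siNTC5 and at 37.6, 37.5, 33.2 and 29.3 CPM in siHNRNPK. The TruSeq siHNRNPK libraries stood level with the Ligation siNTC5 libraries, so the groups overlapped narrowly, yet within each kit siHNRNPK was lower. With kit in the model it fell by 0.48 on the log2 scale (SE 0.07, adjusted p = 9.94e-06, edgeR). Scramble, at 39.5 and 37.7 CPM, was as low as the higher siHNRNPK libraries, and with Scramble among the controls the difference of -0.35 did not pass (adjusted p = 0.0717, edgeR).

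Because GCLC rose and GCLM fell, the ratio of their read counts was formed in each library. It was 2.09, 1.78, 2.81 and 2.41 in siNTC5, 3.27, 3.42, 3.89 and 4.36 in siHNRNPK, and 3.06 and 3.17 in Scramble. All siHNRNPK ratios were above all control ratios, with Scramble between the other groups. The ratio is of reads and not of molecules, since transcript length was not taken into account, and it is a description chosen after the values of both genes had been seen.

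GSS, which joins glycine to the dipeptide made by the ligase, was at 98.6, 101, 96.1 and 94.0 CPM in siNTC5 and at 74.3, 68.3, 58.9 and 65.0 CPM in siHNRNPK. The gap between the groups was wide, and Scramble, at 105 CPM in both libraries, stood with siNTC5. The mean fell from 97.3 ± 2.87 to 66.6 ± 6.41 CPM (SD, n = 4 each), to 68.5% of the control mean, or -0.55 on the log2 scale (SE 0.05, adjusted p = 3.36e-08, edgeR). GSS overlaps MYH7B in the annotation, whose own level was 1.41 to 4.38 CPM over the 8 libraries.

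Among the genes of detoxification and redox repair, TXNRD1 had the largest change of the 10 genes against siNTC5 over the 8 libraries. That rank did not hold with Scramble among the controls, where HMOX1 (-0.81) and GSS (-0.57) exceeded TXNRD1 (0.50) in size, or in TruSeq libraries alone, where GCLM (-0.62) exceeded it (0.59). TXNRD1 encodes the cytosolic thioredoxin reductase, a selenoprotein that returns thioredoxin to its reduced form with electrons from NADPH. It was at 678, 679, 640 and 618 CPM in siNTC5, at 1004, 1025, 1023 and 1028 CPM in siHNRNPK and at 910 and 886 CPM in Scramble. The siHNRNPK libraries formed a tight group above all 6 controls, and Scramble was nearer to siHNRNPK than to siNTC5. The mean reached 156% of siNTC5, or 0.64 on the log2 scale (SE 0.04, adjusted p = 7.11e-11, edgeR). EID3, which lies within TXNRD1, was at 0.383 to 5.06 CPM.

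HMOX1 and NQO1 are widely used as NRF2 reporter genes, and both fell while NFE2L2 RNA rose against siNTC5. GCLM and SRXN1 were also lower, while GCLC and TXNRD1 were higher. The NFE2L2 rise did not pass with Scramble among the controls, as given above, and NRF2 activity was not measured. HMOX1, the inducible haem oxygenase, was at 34.6, 36.7, 32.8 and 33.6 CPM in siNTC5 and at 25.3, 22.0, 21.7 and 23.3 CPM in siHNRNPK. The groups were well apart, and Scramble was higher than either, at 59.1 and 56.0 CPM. The mean fell to 67.0% of siNTC5, or -0.58 on the log2 scale (SE 0.07, adjusted p = 8.32e-07, edgeR).

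NQO1, a quinone reductase, was at 324, 307, 356 and 344 CPM in siNTC5, at 278, 267, 286 and 294 CPM in siHNRNPK and at 442 and 441 CPM in Scramble. Its groups did not overlap either, with siHNRNPK below siNTC5 and Scramble above both. This was -0.24 on the log2 scale (SE 0.04, adjusted p = 3.19e-05, edgeR), and the mean was 84.5% of siNTC5.

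SRXN1 and GPX4 changed least. SRXN1, sulfiredoxin, which repairs over-oxidised peroxiredoxins, was at 185, 190, 152 and 151 CPM in siNTC5 and at 167, 160, 132 and 144 CPM in siHNRNPK. The groups overlapped, the Ligation libraries were the lower ones in each, and Scramble was at 238 and 234 CPM. With kit in the model the fall came to -0.17 on the log2 scale (SE 0.04, adjusted p = 0.00206, edgeR), and without the kit term it did not pass (adjusted p = 0.141). GPX4, the selenoenzyme that reduces lipid hydroperoxides with glutathione, was at 193, 178, 233 and 230 CPM in siNTC5, at 210, 198, 238 and 244 CPM in siHNRNPK and at 371 and 369 CPM in Scramble. The first 2 groups overlapped almost wholly. The estimate for GPX4 was 0.10 on the log2 scale (SE 0.04, adjusted p = 0.0471, edgeR), and it lost its call under 15 of 21 alternatives, among them Scramble as added controls, where the sign turned (-0.23, adjusted p = 0.442).

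Leaving out any of the libraries other than siNTC5 1 ended the GPX4 call, with adjusted p from 0.0564 to 0.227, and no other of the 10 genes lost its call when a library was left out. Where whole groups are compared without a model, 7 of the 10 genes had no overlap between 4 siHNRNPK and 4 siNTC5 libraries, against 56.5% of tested genes (28.5% higher, 28.0% lower). The 7 were NFE2L2, KEAP1, GCLC and TXNRD1 (higher) and NQO1, HMOX1 and GSS (lower). Against all 6 control libraries, a comparison added after the values had been seen, 7 genes again had no overlap, against 44.9% of 13275 shared genes (22.0% higher, 22.9% lower). KEAP1, GCLC and TXNRD1 were above all controls and GCLM, NQO1, HMOX1 and GSS below all of them. GCLM was below by 37.5 against 37.6 CPM with scaling over 10 libraries. Scaled over the 8 libraries, its siHNRNPK and siNTC5 groups overlapped, so its place among the 7 depends on the scaling.

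**Figure D2:**
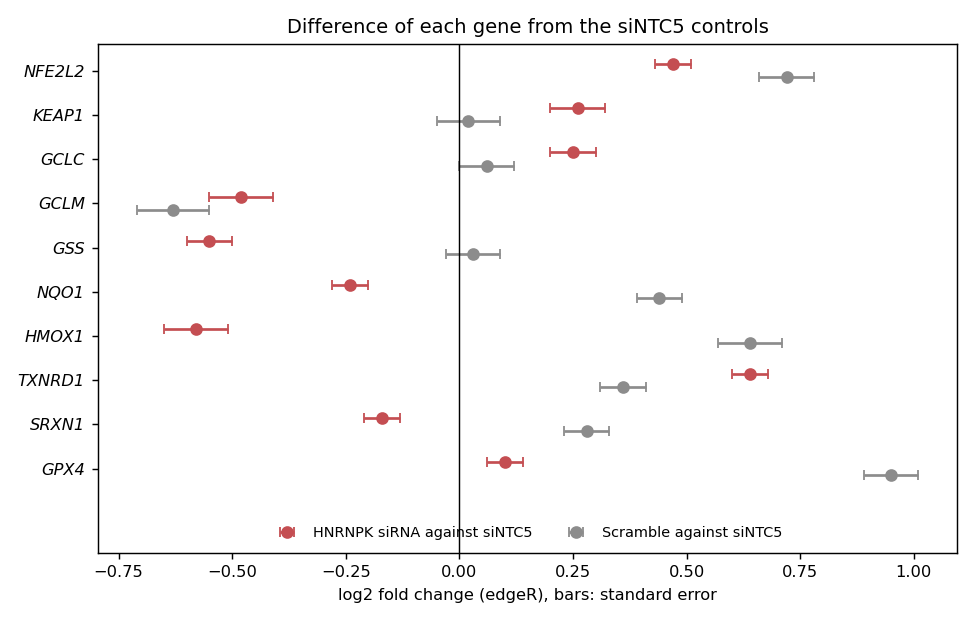
Log2 fold change from edgeR for each gene, with a standard error derived from the F statistic of its test. Shown are siHNRNPK against siNTC5 (red) and Scramble against siNTC5 (grey), which share the siNTC5 libraries. NQO1, HMOX1 and SRXN1 were lower in siHNRNPK and higher in Scramble than in siNTC5, and GPX4 had its largest difference, 0.95, in Scramble.

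The Scramble libraries show how far these genes lay apart between cells that were all given nontargeting siRNA. Scramble differed from siNTC5 in 7 of the 10 genes by edgeR at an adjusted p under 0.05, against 68.6% of 14263 genes tested (35.1% higher, 33.5% lower). NFE2L2 (log2 fold change 0.72), NQO1 (0.44), HMOX1 (0.64), TXNRD1 (0.36), SRXN1 (0.28) and GPX4 (0.95) were higher and GCLM (-0.63) was lower, with adjusted p from 1.27e-08 for GPX4 to 0.000401 for SRXN1. KEAP1 (0.02, adjusted p = 0.776), GCLC (0.06, adjusted p = 0.394) and GSS (0.03, adjusted p = 0.65) did not pass, and each of these 3 changed sign with upper-quartile scaling or unscaled totals. Unscaled totals shifted the median of all genes from 0.003 to -0.179, and the values above are relative to the TMM scale. With TMM scaling, for NFE2L2, HMOX1, NQO1, GCLM, SRXN1 and GPX4 the difference between controls was larger in size than that after knockdown. For TXNRD1, GSS, GCLC and KEAP1 it was smaller. The comparisons share the siNTC5 libraries, and their sizes were not tested against each other. Kit was a term in the Scramble fit and both Scramble libraries are TruSeq, so its estimates are against the TruSeq siNTC5 libraries. In CPM without regard to kit, GCLM in Scramble overlapped siNTC5. The library name, the RNA purification, the depth and the count table all differ between Scramble and siNTC5. The name points to another nontargeting siRNA, but the treatment label is the same and gives no sequence. The parts of siRNA, purification, depth and count table cannot be told apart.

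Some of these genes also differed between the libraries of the 2 kits. Over the 8 libraries, 4 of the 10 genes differed between Ligation and TruSeq libraries, against 28.5% of tested genes (15.2% higher, 13.2% lower). GCLM (log2 fold change -0.43, adjusted p = 0.000299, edgeR) and SRXN1 (-0.28, adjusted p = 0.000161) were lower in Ligation libraries. GPX4 (0.28, adjusted p = 0.000126) and NQO1 (0.12, adjusted p = 0.0319) were higher. The NQO1 call was lost without siNTC5 2, 3 or 4 or siHNRNPK 2 or 4 (adjusted p 0.0604 to 0.114), and the GSS difference, -0.13 in all libraries, passed at -0.15 without siNTC5 1 (adjusted p = 0.0449). Replicates 1 and 2 and replicates 3 and 4 may differ in more than the kit, and these cannot be told apart.

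The knockdown effect itself did not pass a test of difference between kits in any of the 10 genes. The interaction terms ran from -0.14 to 0.30 on the log2 scale, with adjusted p from 0.356 to 0.963 (edgeR), where 0.129% of all genes passed. At an unadjusted p under 0.05 it was 1 of the 10 genes, GCLM, and 1639 of 13933 genes, and DESeq2 called 0 of the 10. Within TruSeq and within Ligation libraries the log2 fold changes were 0.55 and 0.40 for NFE2L2, 0.59 and 0.70 for TXNRD1, -0.58 and -0.57 for HMOX1, and -0.48 and -0.63 for GSS. They were 0.18 and 0.35 for KEAP1, 0.18 and 0.33 for GCLC, -0.62 and -0.33 for GCLM, -0.20 and -0.28 for NQO1, and -0.19 and -0.14 for SRXN1. Each of these 9 genes had the same sign in both kits. GPX4, at 0.15 (adjusted p = 0.0615) and 0.05 (adjusted p = 0.385), passed in neither.

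The profile of TXNRD1 over the 8 libraries was matched most closely by ANXA2, EPS8 and KLHL28 among the tested genes. Likeness was the root-mean-square difference of log2 CPM, each gene centred on its own mean over the 8 libraries, and was 0.0308, 0.0324 and 0.0357. ANXA2 went from 1578 ± 98.1 to 2397 ± 43.0 CPM (SD, n = 4 each), EPS8 from 99.1 ± 3.01 to 155 ± 5.77 CPM and KLHL28 from 25.3 ± 1.25 to 40.3 ± 1.49 CPM. In Scramble, which the likeness did not use, they went separate ways. ANXA2 was at 927 and 975 CPM, below siNTC5, and KLHL28 at 37.6 and 41.8 CPM, level with siHNRNPK. EPS8, at 119 and 109 CPM, lay between siNTC5 and siHNRNPK.

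**Figure D3:**
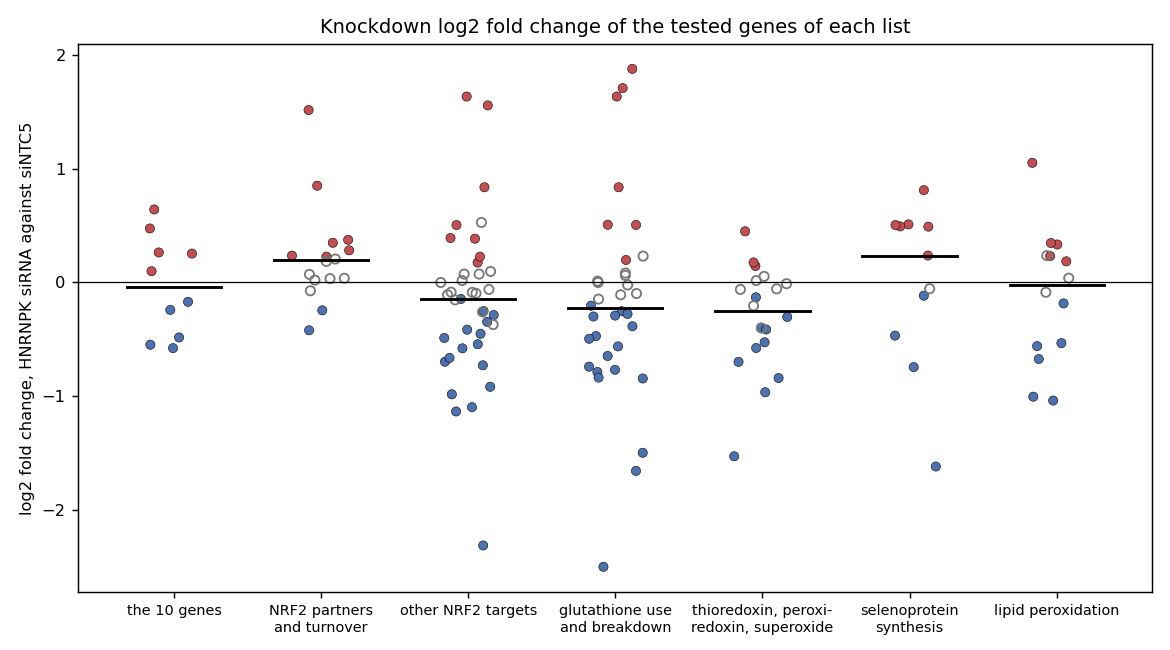
Log2 fold change, siHNRNPK against siNTC5, of every tested gene of 7 lists; filled points have an adjusted p under 0.05 (red higher, blue lower), open points do not, bars are list medians and points are spread sideways for view. The medians run from -0.25 for thioredoxin, peroxiredoxin and superoxide genes to 0.24 for selenoprotein synthesis.

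The genes around NRF2 were described by lists, each read against 71.5% of tested genes called. Some genes stand in more than 1 list, among them MAFG, SLC7A11, SLC3A2, GSR, TXN and PRDX1, so the lists are not independent. Genes given with values are those of the largest rises and falls, up to 3 each way in a list, among called genes with a mean log2 CPM of at least 3 and groups that do not overlap. Genes mentioned without values were picked after their values had been seen. Of 17 partners and turnover factors of NRF2, 16 were tested, 7 were higher, 2 lower and 7 not called, with a median log2 fold change of 0.20. MAFF, a small MAF protein that dimerises with NRF2, rose from 19.3 ± 2.22 to 34.6 ± 2.08 CPM (SD, n = 4 each; log2 fold change 0.85). MAFF was also higher in Scramble than in siNTC5, at 29.6 and 29.7 CPM (log2 fold change 0.70, adjusted p = 3.22e-05, edgeR). BACH1, a repressor that competes with NRF2 for the same elements, rose by 0.38, from 52.1 ± 1.81 to 67.5 ± 2.85 CPM. In Scramble BACH1 was at 74.3 and 80.8 CPM, above siHNRNPK, and with Scramble among the controls the BACH1 difference of 0.18 did not pass (adjusted p = 0.35, edgeR). The NRF2 relative NFE2L3 rose by 0.35 and DPP3, which can displace NRF2 from KEAP1, fell by 0.42 on the log2 scale. CUL3, of the ligase that KEAP1 serves, was not called. SQSTM1, the autophagy receptor that binds KEAP1, was not tested: it had 4 to 11 counts in each of the 8 libraries but 16776 and 14939 in the Scramble libraries. The annotation behind the tables is not stated, so no level of SQSTM1 is drawn from the table of 8.

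Of 43 further NRF2 targets, 39 were tested, 8 were higher, 17 lower and 14 not called, with a median of -0.14. By that rule the falls were led by NQO2, a relative of NQO1 (41.9 ± 1.09 to 19.1 ± 3.4 CPM, log2 fold change -1.13), BLVRB, a biliverdin reductase (56.3 ± 13.3 to 26.2 ± 5.71 CPM, -1.10), and SLC48A1, a haem transporter (-0.92). The other biliverdin reductase of the list, BLVRA, was not called. The rises were led by SLC7A11 and SLC3A2, the subunits of the cystine importer that brings in the cysteine for glutathione, and FTL, the ferritin light chain. SLC7A11 was at 70.9, 74.2, 127 and 126 CPM in siNTC5, at 304, 331, 279 and 281 CPM in siHNRNPK and at 402 and 350 CPM in Scramble. Its siNTC5 libraries divided by kit, and its rise of 1.63 on the log2 scale (SE 0.12, adjusted p = 1.19e-09, edgeR) had an interaction with kit of -0.98 (adjusted p = 2.2e-06), from 2.14 in TruSeq to 1.14 in Ligation. With Scramble among the controls the differences of SLC7A11 (0.78, adjusted p = 0.238), SLC3A2 (0.27, adjusted p = 0.577) and FTL (0.26, adjusted p = 0.271) did not pass in edgeR. Of the 39 genes, 15 were below and 2 above all 6 controls in every siHNRNPK library, where 22.9% and 22.0% of shared genes were.

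Of 42 genes that use or break down glutathione, 34 were tested, 7 were higher, 18 lower and 9 not called, with a median of -0.23. The 7 include SLC7A11 and SLC3A2, the cystine importer subunits already counted among the NRF2 targets. GSTZ1, a glutathione transferase of tyrosine breakdown, went from 20.4 ± 1.32 to 6.4 ± 1.46 CPM (SD, n = 4 each; log2 fold change -1.66). GGCT, which cuts gamma-glutamyl dipeptides, went from 50.3 ± 3.21 to 17.9 ± 3.05 CPM (-1.50), and GSTCD fell by 0.84 on the log2 scale. GSTCD was also lower in Scramble than in siNTC5, at 18.7 and 16.5 CPM (log2 fold change -0.80, adjusted p = 8.17e-06, edgeR). Its highest siHNRNPK library was at 16.4 CPM with scaling over 10 libraries, just below the lower Scramble library. CHAC1, which degrades glutathione and is a target of the ATF4 stress response, had a log2 fold change of 1.71 with an interaction with kit of -2.88, and in Scramble it was at 163 and 148 CPM against 47.2 ± 6.92 CPM in siHNRNPK. With Scramble among the controls the CHAC1 difference turned to -0.26 (adjusted p = 0.857, edgeR), and without the kit term it did not pass (adjusted p = 0.0751). GSR, which reduces oxidised glutathione, was not called. None of the 34 genes was above all 6 controls in every siHNRNPK library and 11 were below, where 22.0% and 22.9% of shared genes were.

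Of 22 thioredoxin, peroxiredoxin and superoxide genes, 20 were tested, 3 were higher, 10 lower and 7 not called, with a median of -0.25. PRDX2, a cytosolic peroxiredoxin, went from 239 ± 16.9 to 83.0 ± 11.2 CPM (SD, n = 4 each; log2 fold change -1.53, adjusted p = 6.8e-14, edgeR), below all controls. TXNRD3, a further thioredoxin reductase, went from 23.0 ± 0.996 to 12.8 ± 1.12 CPM (-0.84), and TXNRD2, the mitochondrial one, was also among the 10 lower. Catalase (CAT) fell by 0.58 on the log2 scale, and PRDX4, the peroxiredoxin of the endoplasmic reticulum, rose by 0.45. TXN, the substrate of TXNRD1, and PRDX1 were not called.

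TXNRD1 and GPX4 need selenocysteine, and of 11 genes of selenoprotein synthesis all 11 were tested, 6 were higher, 4 lower and 1 not called, with a median of 0.24. The higher genes included RPL30 (log2 fold change 0.51), NCL (0.49) and SARS1 (0.51), which also serve ribosomes or general translation. LRP8, a receptor for selenoprotein P, went from 118 ± 9.31 to 70.7 ± 3.94 CPM (SD, n = 4 each; -0.74), and TRNAU1AP, a partner of the selenocysteine transfer RNA, fell by 0.47 on the log2 scale. LRP8 was also lower in Scramble than in siNTC5, at 85.3 and 83.1 CPM (log2 fold change -0.61, adjusted p = 4.31e-06, edgeR). With Scramble among the controls RPL30 (0.29, adjusted p = 0.182) and TRNAU1AP (-0.36, adjusted p = 0.0541) did not pass in edgeR.

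Of 16 genes of lipid peroxidation and its defence, the setting in which GPX4 acts, 14 were tested, 5 were higher, 6 lower and 3 not called, with a median of -0.02. SCD, a desaturase that makes oxidation-resistant monounsaturated fats, went from 2943 ± 59.8 to 1433 ± 34.9 CPM (SD, n = 4 each; log2 fold change -1.04). LPCAT3 (-1.0) and POR (-0.67), which load or oxidise polyunsaturated lipids, were lower as well. TFRC, the transferrin receptor, rose from 478 ± 67.5 to 986 ± 16.2 CPM (1.05), NCOA4, which delivers ferritin to lysosomes, by 0.33, and COQ2, of ubiquinone synthesis, by 0.35. COQ2 did not pass in Ligation libraries alone (0.25, adjusted p = 0.0602, edgeR). AIFM2, the ferroptosis suppressor that reduces ubiquinone, was not called.

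**Figure D4:**
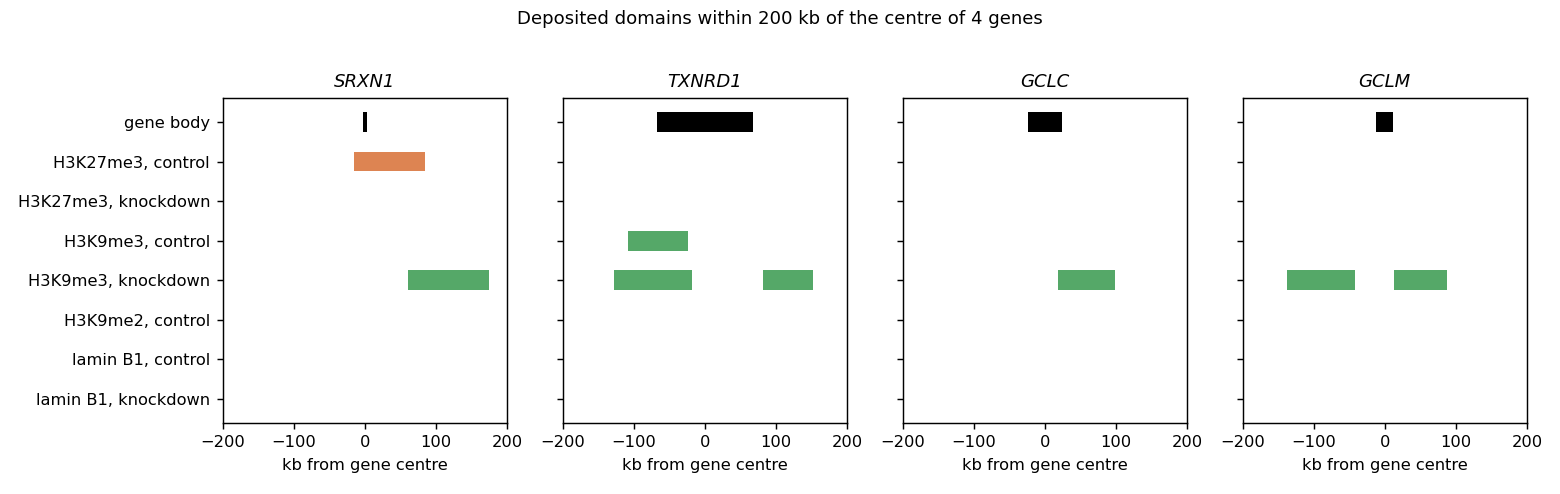
Deposited domains within 200 kb of the centre of 4 genes, drawn to scale, with the gene body in black and domains coloured by mark (H3K27me3 orange, H3K9me3 green). SRXN1 lies inside an H3K27me3 domain of 100 kb in the control list that has no counterpart in the knockdown list, and TXNRD1 has an H3K9me3 domain over its first part in both lists.

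The 10 genes were placed against the lists of ChIP domains. H3K27me3 is laid down by Polycomb, H3K9me2 and H3K9me3 mark heterochromatin, and lamin B1 marks chromatin at the nuclear envelope. A gene was called inside a domain when at least 50% of its body was covered, with gene positions from RefSeq on GRCh38.p14. Each list is a single call without replicates, so a difference between lists has no test. No gene of the 10 was inside a lamin B1, H3K9me2 or H3K9me3 domain, where 1.2% to 5.9% of tested genes with a position were. SRXN1 alone was inside H3K27me3 in control cells, where 9.84% of tested genes were. Shares this small leave about as few of 10 genes inside, so nothing is read from these counts. Counting any overlap, 2 of the 10 genes touched an H3K9me3 domain of the knockdown list, where 9.56% of tested genes did, and 1 touched one of the control list, where 4.35% did.

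The SRXN1 gene spans chr20:646615-653200 on the minus strand, and 100% of it was covered by the control H3K27me3 domain at chr20:635001-735000. In the knockdown list no H3K27me3 domain touched it and the nearest was 267 kb away, and an H3K9me3 domain at chr20:710001-825000 lay 56.8 kb away. SRXN1 RNA was at 151 to 190 CPM in siNTC5 and was lower in knockdown (log2 fold change -0.17). Of 1327 tested genes inside control H3K27me3 domains, 155 (11.7%) had no base in the knockdown list, 52 of them with higher RNA and 57 with lower, at a median of -0.07. Over all tested genes 35.5% were higher and 36.1% lower, at a median of -0.004, so nothing is read from these counts.

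TXNRD1 spans chr12:104215779-104350307 on the plus strand, and 32.9% of it was covered by the control H3K9me3 domain at chr12:104175001-104260000. In the knockdown list the domain ran from 104155001 to 104265000 and covered 36.6%. That stretch holds the first TXNRD1 start, whose sequence is printed above, but not the window of the second, chr12:104286782-104287081. GCLC had 10.7% of its body in a knockdown-list H3K9me3 domain at chr6:53540001-53620000, which includes its start, and none in the control list. GCLM was 0.57 kb from a knockdown-list domain at chr1:93910001-93985000, where the nearest domain of the control list was 420 kb away. After knockdown RNA of TXNRD1 and GCLC was higher and that of GCLM lower, and any part of these domains in the RNA was not tested.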

How the data were processed

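RNA was measured in 10 libraries of HCT116 cells (4 siNTC5, 4 siHNRNPK, 2 Scramble), part of a series of 45 samples. The deposited RNA values are raw read counts per gene symbol, with no normalisation by the authors in the tables. STAR 2.7.1a, featureCounts and Subread 2.0.6 with hg38 are named for the table of 8 libraries, and STAR 2.7.1a, featureCounts and DESeq2 with both hg19 and hg38 for the Scramble tables, per the submitters' processing notes. The annotation and the strand setting of the counting are not given in the sources used here, so reads of a gene and of an overlapping or antisense gene may be mixed. The domain lists carry a deposited score per domain whose unit is not given, and only the intervals were used. Bowtie2 2.5.1, deepTools 3.1.3 and hg38 are named for the ChIP data, per the submitters' processing notes. The domain caller and the pooling of replicates are not given in the sources used here.

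The tests were run in R 4.3.3 with edgeR 4.0.16 (limma 3.58.1): filterByExpr by group, TMM, and quasi-likelihood tests of treatment beside library kit. Benjamini-Hochberg adjustment covered all genes tested, and an adjusted p under 0.05 at any fold change was a call. Each SE is the size of the log2 fold change divided by the square root of the F statistic of the quasi-likelihood test. The code was tested on simulated counts. CPM values of siNTC5 and siHNRNPK were scaled over the 8 libraries, and those of Scramble, and any comparison with all 6 controls, over 10 libraries and the 25527 shared names. No exon lengths were used. The ratio of GCLC to GCLM and the summed levels of lists are therefore of reads and not of molecules.

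Named genes are the 10 members, HNRNPK, and up to 3 rises and 3 falls per pathway list among called genes with a mean log2 CPM of at least 3 and no overlap between groups. The 3 genes most like the member with the largest change were named too. The members and lists were chosen with earlier results of these data known. Libraries with the same replicate number deviated together (correlations 0.1301, 0.4878, 0.3998 and 0.3205 for numbers 1 to 4), and once kit means were removed the correlations were 0.06683 and 0.01258. The numbers were therefore also used as a replicate block in place of kit. Other alternatives were DESeq2 1.42.0 and its size factors, upper-quartile and unscaled totals, other filters, no kit term, each kit alone, Scramble as added controls, each library left out, and other overlap rules for domains. Unscaled totals and shared names alone were added after the data had been seen.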

Additional observations from a re-analysis of the deposited data

How the results depend on the processing

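The count of the 10 genes called after HNRNPK knockdown was 10 and lay between 7 and 10 under all alternatives that kept the threshold: 7 with Scramble added as controls (NFE2L2, GCLM and GPX4 lost), 8 without the kit term, 8 in TruSeq and 9 in Ligation libraries alone, and 9 to 10 with a library left out. With a replicate block in place of kit 9 of the 10 were called, GPX4 being lost (adjusted p = 0.0591, edgeR), and the block changed no other call of the 10. With a minimum absolute log2 fold change of 1 it was 0 of the 10, and 2195 of all genes in place of 9968. With Scramble as added controls GPX4 was -0.23 and CHAC1 -0.26, both opposite in sign to the values above. In Scramble against siNTC5, where 7 genes were called throughout, 3 uncalled genes changed sign: KEAP1 was -0.06 by upper-quartile scaling, 0.00 with a mean of at least 50 counts (just below zero), -0.16 by unscaled totals and -0.07 to 0.12 with a library left out, GCLC was -0.02 and -0.12, and GSS -0.05 and -0.15 by the 2 scalings. By unscaled totals GSS passed (adjusted p = 0.0297) and SRXN1 did not (0.10, adjusted p = 0.1). Between kits 3 to 5 genes were called, and KEAP1 was -0.06 in siNTC5 libraries alone and -0.02 to 0.08 with a library left out. No interaction was called among the 10 genes under any alternative, while over all genes the 18 became 71 with DESeq2, 239 with no filter and 6 to 598 with a library left out. Kit differences over all genes fell from 3966 to 2076 in siNTC5 libraries alone. Counting any overlap with a gene body, 2 genes were in H3K9me3 domains of the knockdown list and 1 in those of the control list, against 9.56% and 4.35% of tested genes. The cause of these shifts was not tested. With Scramble in 2 libraries and 2 libraries per kit and treatment, the precision of those comparisons is limited, and GPX4 is near the threshold.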

Other observations

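SESN2, a sestrin that promotes the breakdown of KEAP1, had 0 to 1 counts in each of the 8 libraries and 8598 and 7658 counts in the Scramble libraries, and ALOX5, a lipoxygenase, had 0 counts and 219 and 199 counts. Both were chosen after their values had been seen, and neither was tested. The annotation behind the tables is not stated, so these counts are not read as levels or as a difference between controls. TXNIP, the inhibitor of thioredoxin, had 0 to 1 counts in the 8 libraries and 4 and 0 in Scramble. The summed level of the 11 selenoprotein synthesis genes was 2743 to 2941 CPM in siNTC5 and 3798 to 3892 CPM in siHNRNPK. Most of that rise came from NCL (1629 ± 76.2 to 2292 ± 55.1 CPM) and RPL30 (653 ± 36.8 to 931 ± 38.4 CPM; SD, n = 4 each), and 4 of the 11 genes were lower. For the 16 lipid peroxidation genes the sum was 4143 to 4372 CPM in siNTC5 and 3163 to 3246 CPM in siHNRNPK. SCD alone, from 2943 ± 59.8 to 1433 ± 34.9 CPM (SD, n = 4 each), fell by more than that sum did.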
